A study of Mus musculus with 24 samples.

Results

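Nut, encoded by Nutm1, is a testis protein of the cells that follow meiosis, and the question here was whether loss of Nut altered RNA levels differently in round spermatids than in spermatocytes. The comparison is a difference of differences, KO minus WT in round spermatids less KO minus WT in spermatocytes, on the log2 scale of the signal. It used 12 of the 24 bead arrays of the series, 3 in each of 4 groups, chosen because each was hybridised with RNA of a single cell fractionation. A negative value means that KO minus WT was lower in round spermatids than in spermatocytes, and a positive value that it was higher.

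The groups were round spermatids of Nutm1 KO mice, round spermatids of WT mice, spermatocytes of Nutm1 KO mice and spermatocytes of WT mice. All were adult males of the B6/129sv background, and testis cells were sorted by how fast they settled in an albumin gradient. Each genotype had 3 fractionations, each from pooled testes of 3 KO mice or 2 WT mice, so spermatids and spermatocytes with one replicate number come from the same animals. Replicates 4 to 6 of each group are mixtures of the RNA of replicates 1 and 2, 2 and 3, and 1 and 3, and were left out of the tests. The labels name the mutant a KO, the design text speaks of a knock down, and which part of the gene was altered is not given. The fractions are enriched and not pure. In such bulk RNA, fewer cells of a type and less RNA per cell cannot be told apart.

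Spermatocytes are the cells in meiosis, and round spermatids are the haploid cells that meiosis yields. In elongating spermatids, the stage after, histones are acetylated and then replaced by transition proteins and protamines. Nut is known to bind the acetyltransferase p300 through an acidic domain and to stimulate it, and many genes of sperm formation are first transcribed, or transcribed most, in round spermatids.

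The direct arrays had median intensities of 136 to 171 and detected 13849 to 16244 of 45281 probes (detection p under 0.01). Nutm1 itself, read by 1 probe, had signals of 6.81, 6.75 and 7.03 in KO round spermatids and 8.52, 8.40 and 8.18 in WT round spermatids. In spermatocytes it had 5.51, 5.69 and 5.67 in KO and 5.76, 6.17 and 6.89 in WT. The KO arrays lay below the WT arrays at each stage, and the difference between the stages was -0.86 (SE 0.35, adjusted p = 0.275). Without WT spermatocyte replicate 3 it was -1.17, and the call then passed (adjusted p = 0.0277). A probe outside the altered part of the gene would check nothing, and where this probe lies is not given.

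Round spermatid markers separated the stages, spermatocyte markers did not on every array, and some arrays stood apart. The mean signal of 16 round spermatid markers was 12.88 to 13.11 in KO and 13.16 to 13.30 in WT round spermatids. It was 11.62 to 11.75 in KO spermatocytes, and 11.25, 11.57 and 12.49 in WT spermatocytes. WT spermatocyte replicate 3 thus had the highest level of spermatid markers among the spermatocyte arrays. Of 60 named genes that passed the test described below 1, Prss50, lost its call without that array. This was the array whose removal cost the fewest of these calls. Without any other single array 6 to 32 of the 60 were lost, the most without WT round spermatid replicate 3. The mean of 13 spermatocyte markers was 8.80 to 8.99 in KO and 8.51 to 8.97 in WT round spermatids, against 8.95 to 9.58 in KO and 9.26 to 9.47 in WT spermatocytes. These means overlapped between the stages at KO spermatocyte replicate 1. That array also had the highest mean of 8 Leydig cell markers, 12.68, against 8.07 and 10.11 on the other KO and 10.37 to 11.40 on the WT spermatocyte arrays. Markers of macrophages and other immune cells (15 genes) averaged 8.55, 7.21 and 8.10 in KO and 7.29, 6.64 and 7.49 in WT round spermatids, 5.26 to 6.37 in KO and 5.38 to 6.12 in WT spermatocytes. No member of the 8 marker lists was among the stage-dependent calls below, against 1.49% of all features. With 3 to 16 measured genes per list, a count of 0 is near that share and says little. All 15 macrophage markers (median 0.63) and all 8 Leydig markers (median 0.72) nonetheless had a difference between stages above 0, the direction of the positive calls. The part of other cell types in the results was not tested.

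**Figure D1:**
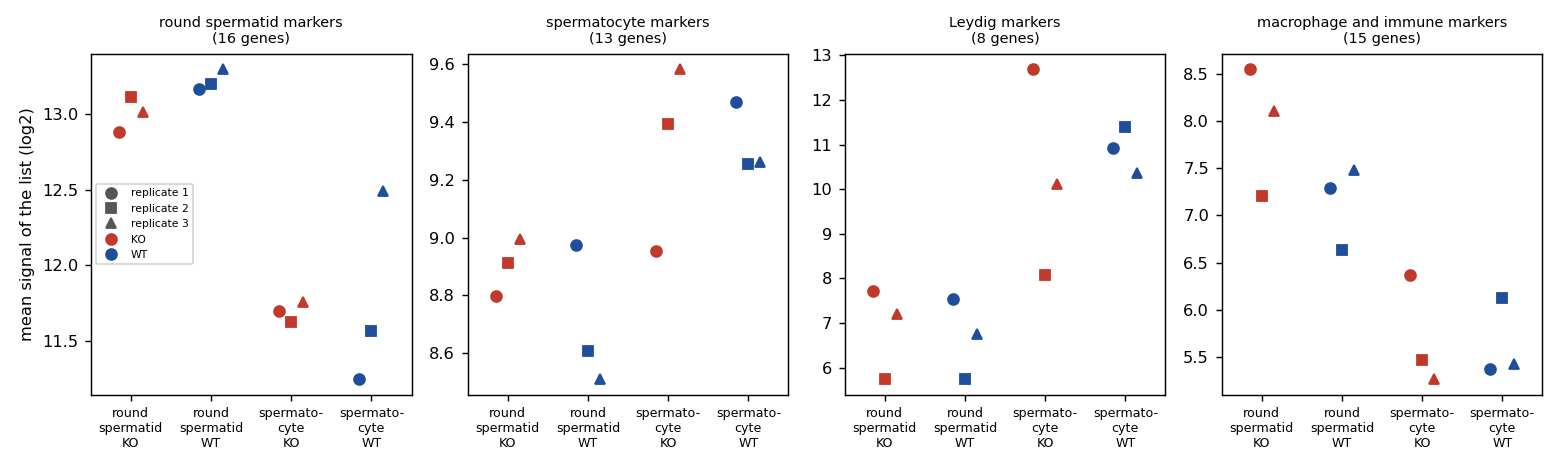
Mean signal (log2, neqc scale) of 4 marker lists on each of the 12 direct arrays, with KO left of WT and round spermatids left of spermatocytes, and with the replicate shown by the shape of the point. WT spermatocyte replicate 3 has a spermatid marker mean of 12.49, against 11.25 and 11.57 on the other WT spermatocyte arrays, and KO spermatocyte replicate 1 has the highest Leydig marker mean, 12.68.

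Most features that passed the test of a difference between the stages had less RNA in KO round spermatids. The balance of directions moved with the arrays and weights used. Of 12705 features tested (10076 genes and 2629 probes without a gene name), 189 passed (1.49%), at a Benjamini-Hochberg adjusted p under 0.05. The difference was negative in 166 of them (1.31% of all features) and positive in 23 (0.181%). A gene symbol was given for 111 of the negative and 18 of the positive calls. The median difference was -1.92 over the negative and 1.26 over the positive calls, against 0.09 over all features. With cyclic loess as the scaling the median of all features was -0.09, with the authors' processed values it was 0.05, and the negative share of calls was 98.1% with cyclic loess, against 87.8%. It was 54.7% with array weights, 64.8% without WT round spermatid replicate 1 and 38.2% on the mixed arrays alone. Without WT spermatocyte replicate 3 there were 490 calls (92.0% negative), among them 188 of the 189. Without WT spermatocyte replicate 2 there were 82, without KO round spermatid replicate 3 there were 83 and without WT round spermatid replicate 3 there were 89. With the fractionation as a fixed replicate block there were 204 calls (97.1% negative), among them 157 of the 189.

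All 166 negative calls were also falls in round spermatids, where 1015 features fell (7.99% of those tested) and 875 rose (6.89%) in KO. Over the 166, KO minus WT had a median of -2.55 in round spermatids and -0.50 in spermatocytes. In spermatocytes 82 features fell (0.645%) and 24 rose (0.189%) in KO, and 26 of the 166 negative calls were among those falls. Of the 23 positive calls 21 were rises in round spermatids and 0 changed in spermatocytes at an adjusted p under 0.05. Their medians were 1.00 in round spermatids and -0.22 in spermatocytes. The round spermatid falls passed the test between the stages more often than the rises did, 166 of 1015 (16.4%) and 21 of 875 (2.40%), and that contrast was not tested. Where a feature passed at both stages it moved the same way in each of 99 cases, 78 falls and 21 rises.

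The stage step, the level in round spermatids less that in spermatocytes of the same fractionation, shows the same calls from the side of development. Over the negative calls the median step was 0.18 in KO and 2.29 in WT cells, against 0.01 and -0.12 over all features. WT cells had more of the RNA in round spermatids than in spermatocytes in 164 of these 166 features, and KO cells in 114. The 2 exceptions in WT, named after their values were seen, were Timm8a2 and Vti1a. The WT step of Vti1a was -0.05, and its call (difference -1.02) held under 10 of 25 alternatives. A second Vti1a probe gave a difference of 0.39 that did not pass (adjusted p = 0.549). Over the positive calls the median step was 0.65 in KO and -0.67 in WT cells, and the level was higher in round spermatids in 16 of the 23 in KO and in 2 in WT. For each of the 189 calls the steps of the 3 KO fractionations lay apart from those of the 3 WT fractionations, as they did for 2664 of all features (21.0%). The calls were chosen on this quantity, so their count is a description.

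**Figure D2:**
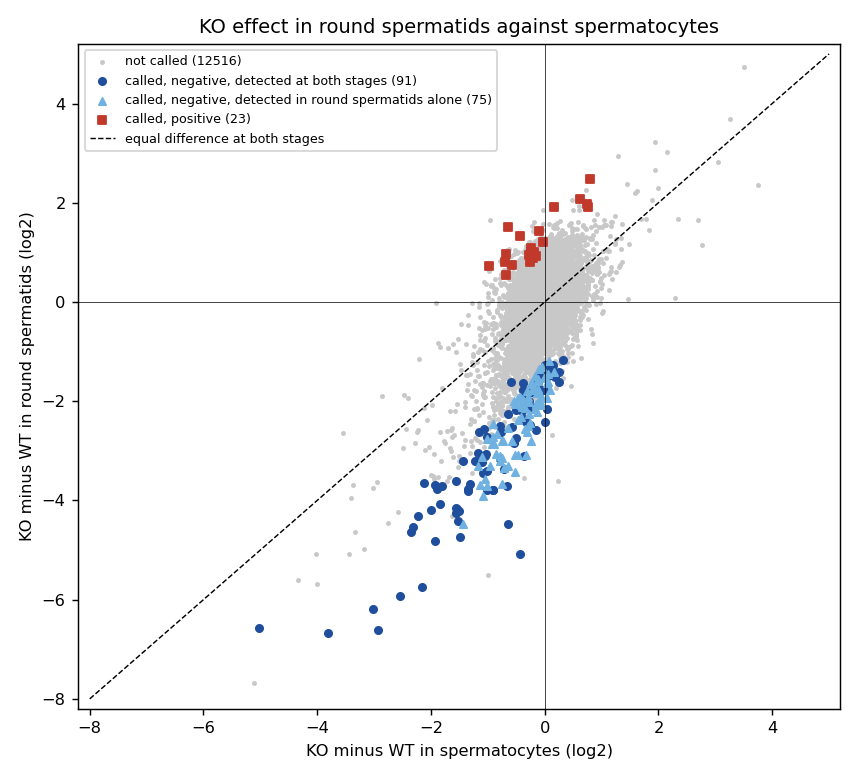
KO minus WT (log2) in round spermatids (vertical axis) against spermatocytes (horizontal axis) for 12705 features, with the 91 negative calls detected at both stages, the 75 detected in round spermatids alone and the 23 positive calls marked, and a dashed line where both differences are equal. The negative calls lie below the line, with medians of -2.55 in round spermatids and -0.50 in spermatocytes.

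Detection decides how far the size of these differences can be read. A feature was taken as detected at a stage when all 3 arrays of at least 1 genotype had a detection p under 0.01. By this measure 91 negative calls were detected at both stages and 75 in round spermatids alone, and 21 of the 23 positive calls were detected at both stages. Calls made up 112 of the 10055 features detected at both stages (1.11%), 76 of the 1065 detected in round spermatids alone (7.14%) and 0 of the 844 detected in spermatocytes alone. All 166 negative calls were detected on all 3 WT round spermatid arrays. The classes and the calls thus rest on the same signals, and these shares are a description that follows in part from how the classes were made. For those detected in round spermatids alone, KO minus WT in spermatocytes compares signals near background. A fall of the size seen in round spermatids could not be measured there. In 37 of the 166 negative calls no spermatocyte array detected the feature. These were kept for the test only because round spermatid arrays detected them. Features that fewer than 3 spermatocyte arrays detected, such as Snx29, also needed round spermatid arrays to pass the filter.

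A second limit comes from KO cells without detectable RNA. In 77 of the 166 negative calls no KO array of either stage detected the feature, so the KO level was flat near background (median step 0.04) and the difference between the stages was set by the WT step (median 2.06). For such features an equal relative loss at both stages and a larger loss in round spermatids cannot be told apart. In 24 of the 77 a bound could be set at each stage, and KO was below WT at both. The relative loss was measured at both stages, with a detected array in all 4 groups, for 62 negative and 17 positive calls. For this 1 detected array per group sufficed, and undetected signals entered the folds as they were. Detection on all 12 arrays held for 45 negative and 13 positive calls, 29 and 10 of them with a gene symbol. Among the 8638 features detected on all 12 arrays, 58 passed (0.671%).

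**Figure D3:**
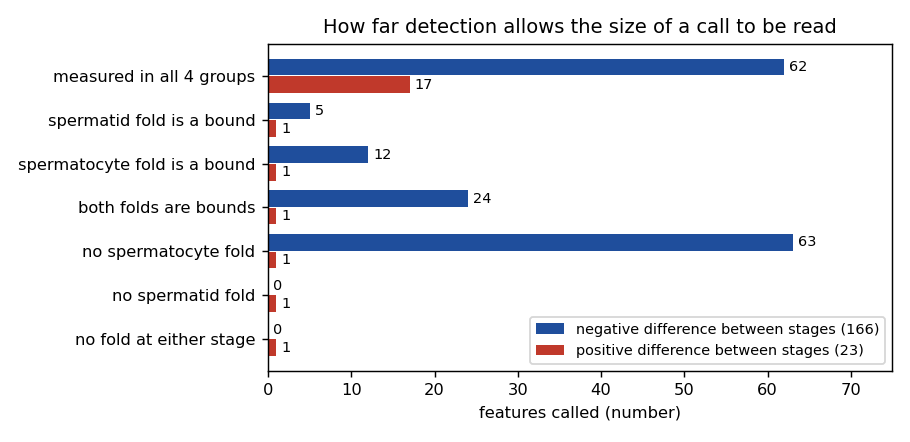
Number of calls by what detection allows: a measured fold at both stages, a bound on the fold at 1 stage or both, or no fold because neither genotype was detected or the bound was under 1. With at least 1 detected array in each of the 4 groups, a fold was measured for 62 of 166 negative and 17 of 23 positive calls. For 63 negative calls there is no spermatocyte fold.

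In the 45 negative calls on all 12 arrays the folds were measured at both stages. Some of these signals were still close to the lowest detected level of their array. The calls were chosen on the difference between stages, so the values below describe it and do not test it. Their median KO minus WT was -2.15 in round spermatids and -0.32 in spermatocytes, and in 27 of them the spermatocyte value was within 0.5 of 0. The genes of this group named below were added after their values were seen, apart from H2al2a, Hdac4 and Klk1b8.

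Pcca, the alpha subunit of the mitochondrial propionyl-CoA carboxylase, had 7.94, 7.65 and 7.41 in KO and 9.66, 9.68 and 10.12 in WT round spermatids. Its spermatocyte signals were 9.14, 8.84 and 8.99 in KO and 8.84, 9.01 and 9.02 in WT. The genotypes lay apart in round spermatids and overlapped in spermatocytes. KO minus WT was -2.15 (SE 0.19, 4.45-fold lower) in round spermatids and 0.04 (SE 0.19) in spermatocytes, and the difference between stages was -2.19 (SE 0.27, adjusted p = 0.00269). Without WT spermatocyte replicate 3 it was -2.22. WT cells had 0.86 more Pcca signal in round spermatids than in spermatocytes, whereas KO cells had 1.33 less, a step of -1.33. Of the other Pcca probes, 1 gave -2.43 and passed, and 1 with a mean signal of 6.33 gave -0.54 and did not pass.

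Timm8a2, a relative of the mitochondrial import chaperone Timm8a1, had 7.76, 6.97 and 7.70 in KO and 9.48, 9.70 and 9.62 in WT round spermatids. Spermatocytes had 10.18, 10.38 and 9.84 in KO and 10.70, 10.52 and 9.89 in WT. It was lower in round spermatids than in spermatocytes in both genotypes, with a step of -2.66 in KO and -0.77 in WT. The Timm8a2 difference was -1.89 (SE 0.37, adjusted p = 0.0282), and -1.65 without WT spermatocyte replicate 3, and a second probe gave -1.74. The Timm8a2 call held under 17 of 25 alternatives and was lost on the mixed arrays.

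H2al2a, a histone H2A variant of condensing spermatids, had 10.28, 10.30 and 10.08 in KO and 12.08, 12 and 12.08 in WT round spermatids. In spermatocytes it had 8.96, 9.05 and 9.07 in KO and 8.87, 8.81 and 9.72 in WT, where replicate 3 stood above the others. H2al2a RNA was 3.56-fold lower in KO round spermatids, and KO minus WT in spermatocytes was -0.11 (SE 0.22). The H2al2a difference was -1.73 (SE 0.31, adjusted p = 0.0184), and -2.02 without WT spermatocyte replicate 3. It did not pass without KO round spermatid replicate 3, WT round spermatid replicate 3 or WT spermatocyte replicate 2 (adjusted p = 0.0649, 0.057 and 0.0608), nor on the mixed arrays (-0.79, adjusted p = 0.174). The stage step of H2al2a was 1.19 in KO cells, against 2.92 in WT cells.

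Hdac4, a class IIa histone deacetylase, had 6.13, 6.27 and 6.05 in KO and 8.56, 8.54 and 8.87 in WT round spermatids. Spermatocytes had 6.20, 6.43 and 6.73 in KO and 6.90, 7.09 and 7.74 in WT. The KO arrays were below the WT arrays at both stages, by 5.69-fold on average in round spermatids (adjusted p = 1.43e-05) and by 1.73-fold in spermatocytes (adjusted p = 0.236). The Hdac4 difference was -1.72 (SE 0.32, adjusted p = 0.0215), or -1.97 without WT spermatocyte replicate 3, and the step was -0.30 in KO and 1.41 in WT cells. The Hdac4 call held under 19 of 25 alternatives.

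Others on all 12 arrays had spermatocyte differences within 0.5 of 0. Maea, a subunit of the CTLH ubiquitin ligase, had KO minus WT of -1.26 in round spermatids and 0.15 in spermatocytes, a difference of -1.41 (SE 0.23, adjusted p = 0.011). Aars2, the mitochondrial alanyl-tRNA synthetase, had -1.49 and 0.05 (difference -1.54, SE 0.29), and lost its call with the fixed replicate block (adjusted p = 0.063). Ctnna3, an alpha-catenin, had -1.48 and 0.11 (difference -1.59, SE 0.35, adjusted p = 0.0463). Kcnip2, a subunit of voltage-gated potassium channels, had -1.41 and 0.25 (difference -1.65, SE 0.34). Gramd2 had -2.47 and -0.26 (difference -2.22, SE 0.29). The calls of Maea and Gramd2 held under all 25 alternatives. Those of Aars2, Kcnip2 and Ctnna3 held under 18, 15 and 13 of 25.

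In a further group the RNA was lower in KO spermatocytes too, and the fall was larger in round spermatids. Arhgap26, a GTPase-activating protein, was 10.7-fold lower in KO round spermatids and 2.02-fold lower in KO spermatocytes, where the fall missed the threshold (adjusted p = 0.0669). Its difference between stages was -2.40 (SE 0.31, adjusted p = 0.00303). Leaving out WT spermatocyte replicate 3 gave -2.60 for Arhgap26 and -1.49 for Maea. Tmem189 was 9.36-fold and 2.22-fold lower, and Hipk2, a protein kinase, 6.14-fold and 2.23-fold lower, and all 4 of these falls passed. Ccdc57, a coiled-coil protein, was 16.8-fold lower in round spermatids and 3.59-fold lower in spermatocytes, and Defb33, a beta-defensin, 12.9-fold and 3.82-fold. A second Hipk2 probe gave a difference of -0.13 that did not pass (adjusted p = 0.915), against -1.46 for the probe used. The calls of Hipk2, Ccdc57 and Defb33 held under 13, 16 and 12 of 25 alternatives. Those of Arhgap26 and Tmem189 held under all 25.

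**Figure D4:**
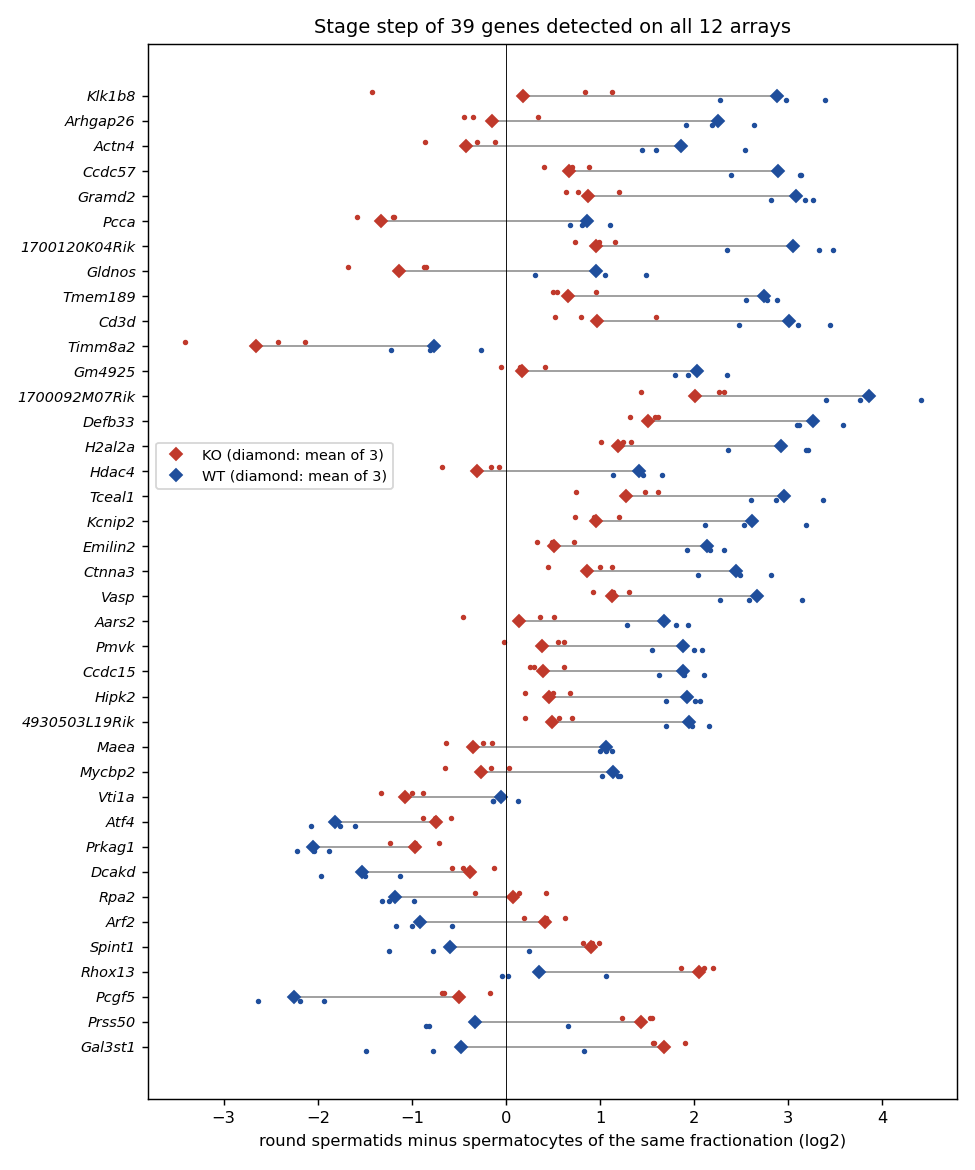
Stage step (round spermatids minus spermatocytes, log2) of the 39 called genes detected on all 12 arrays, with 3 small points per genotype for the fractionations and a diamond for their mean, KO in red and WT in blue, negative calls above and positive calls below. For Pcca the mean step is -1.33 in KO and 0.86 in WT cells, and for Pcgf5 -0.50 in KO and -2.25 in WT cells.

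Several of the most negative fitted differences belonged to genes that were high in WT round spermatids and undetected in KO cells. Cyp2a12, a cytochrome P450, had 4.56, 4.65 and 4.53 in KO and 11.23, 11.33 and 11.01 in WT round spermatids. Its spermatocyte signals were 4.65, 4.72 and 4.64 in KO and 7.25, 7.20 and 8.34 in WT. No KO array detected it and every WT array did, so Cyp2a12 RNA was at least 51.3-fold lower in KO round spermatids and at least 3.96-fold lower in KO spermatocytes. The fitted difference was -3.68 (SE 0.36, adjusted p = 0.000958), or -4.05 without WT spermatocyte replicate 3, with a step of -0.09 in KO and 3.59 in WT cells. Both folds are bounds, so whether the relative loss differed between the stages was not measured.

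Tmod4, a tropomodulin that caps actin filaments, and Efcab1, an EF-hand protein, followed the same pattern. Tmod4 was at least 36.9-fold lower in KO round spermatids and at least 3.75-fold lower in KO spermatocytes (difference -3.39, SE 0.45). Efcab1 was at least 24.6-fold and at least 2.77-fold lower (difference -2.88, SE 0.41). Calml4, a calmodulin-like protein, was 21.3-fold lower in round spermatids, where 1 of 3 KO arrays detected it, and at least 1.83-fold lower in spermatocytes (difference -2.88, SE 0.39).

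Slc39a4, a zinc importer, was still detected on each KO round spermatid array. It had 5.82, 5.79 and 5.76 in KO and 9.38, 9.50 and 9.84 in WT round spermatids. In spermatocytes it had 5.59, 5.43 and 5.47 in KO, 1 of them detected, and 6.38, 6.09 and 6.77 in WT. The genotypes lay apart at both stages. It was 13.7-fold lower in KO round spermatids and 1.89-fold lower in KO spermatocytes (adjusted p = 0.0523), and the difference was -2.86 (SE 0.27, adjusted p = 0.000958).

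Gsdmd, the pore-forming protein of pyroptotic cell death, had 5.96, 5.35 and 5.70 in KO and 9.37, 9.48 and 9.51 in WT round spermatids. Its spermatocyte signals were 5.29, 5.86 and 5.35 in KO and 6.36, 6.24 and 6.94 in WT. It was 13.8-fold lower in KO round spermatids, and the difference of -2.77 (SE 0.33, adjusted p = 0.00269) rests on KO signals of which 3 of 6 were detected.

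Car2, a carbonic anhydrase, was 102-fold lower in KO round spermatids and 14.1-fold lower in KO spermatocytes, against KO signals near background that 2 of 3 and 1 of 3 arrays detected. It passed at each stage (adjusted p = 7.79e-07 and 0.000459), and the difference was -2.86 (SE 0.56, adjusted p = 0.0295). WT spermatocyte replicate 3 read 10.30 for Car2, against 8.27 and 8.80 on the other WT spermatocyte arrays, and without it the difference was -3.45. The Car2 call held under 16 of 25 alternatives, and was lost without any 1 of 8 of the other arrays.

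Fndc3a and Nat8f4 fell in round spermatids, and their spermatocyte signals overlapped. Fndc3a, which in mice is needed for the adhesion between spermatids and Sertoli cells, was 8.65-fold lower in KO round spermatids (5.85, 6.30 and 6.14 in KO, 8.79, 9.57 and 9.27 in WT). In spermatocytes it had 5.39, 5.91 and 5.73 in KO and 5.64, 5.87 and 6.63 in WT, which overlap, and the difference was -2.74 (SE 0.39). Nat8f4, of a family of N-acetyltransferases, had 6.12, 5.48 and 5.86 in KO and 10.39, 10.45 and 10.05 in WT round spermatids. Its spermatocyte signals of 7.99, 6.71 and 7.16 in KO and 7.48, 7.69 and 8.62 in WT overlapped too, and the difference was -3.83 (SE 0.49, adjusted p = 0.00289). Without WT spermatocyte replicate 3 the differences were -3.83 for Tmod4, -3.04 for Slc39a4, -2.98 for Gsdmd, -3.04 for Fndc3a and -4.18 for Nat8f4. For Nat8f4 the KO step was -1.47, so KO round spermatids had less of this RNA than KO spermatocytes.

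**Figure D5:**
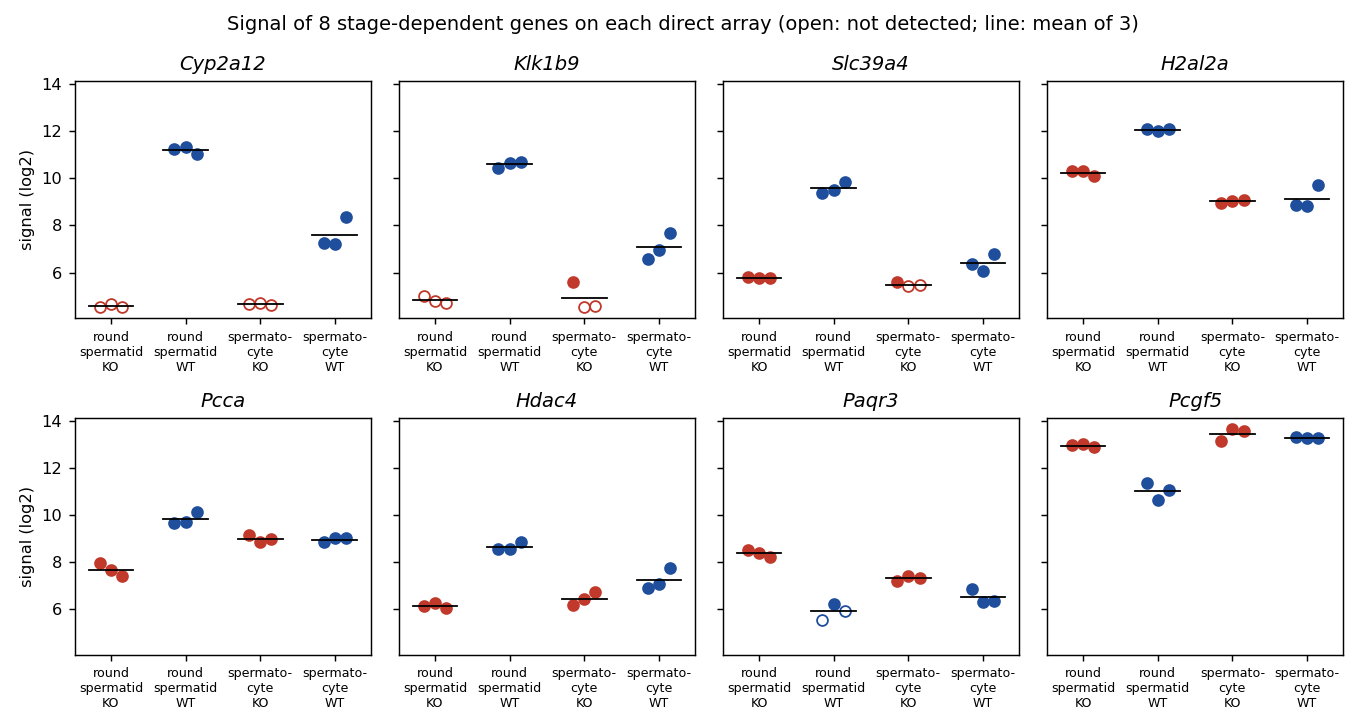
Signal (log2, neqc scale) of 8 genes on each of the 12 direct arrays, KO in red and WT in blue, with open points where the array did not detect the gene and a line at the mean of 3. For Pcca, H2al2a and Pcgf5 the genotypes lie apart in round spermatids and overlap in spermatocytes.

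The Klk1b kallikreins, serine proteases encoded in a mouse gene cluster, gave 3 of the negative calls among 10 measured members of the list. Negative calls were 1.31% of all features. Of the 10 members 6 had a difference below 0 and 4 above, and the list was not tested. Their sequences are alike, so which paralog a probe reads is uncertain. Klk1b9 had 4.99, 4.81 and 4.71 in KO and 10.45, 10.63 and 10.68 in WT round spermatids, at least 33.7-fold lower in KO. Klk1b9 spermatocyte signals were 5.6, 4.54 and 4.60 in KO and 6.59, 6.94 and 7.68 in WT, 4.45-fold lower against KO signals of which 1 of 3 was detected. The Klk1b9 difference was -3.59 (SE 0.44, adjusted p = 0.00269). Both stages had KO below WT for Klk1b9, whereas Klk1b5 overlapped in spermatocytes.

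Klk1b5 had 5.32, 5.25 and 4.95 in KO and 10.25, 10.25 and 10.27 in WT round spermatids. Klk1b5 signals in spermatocytes were 8.43, 5.41 and 6.30 in KO and 6.53, 7.5 and 7.41 in WT. The difference of Klk1b5, -4.65 (SE 0.80, adjusted p = 0.0132), was the most negative of all 189 calls. The high KO spermatocyte value of 8.43 is on replicate 1, the array with the highest Leydig markers. Without that array the Klk1b5 difference was -3.80 (adjusted p = 0.00201). Klk1b8 was 18.5-fold lower in KO round spermatids (difference between stages -2.70, SE 0.60, adjusted p = 0.0473). In KO spermatocytes its mean was 2.85-fold lower, which did not pass (adjusted p = 0.215). There the genotypes overlapped, with 9.61, 8.01 and 7.71 in KO and 9.49, 9.88 and 10.49 in WT, and the high KO value was again on replicate 1. The difference between stages is the call meant below. This Klk1b8 difference did not pass with the fixed replicate block (adjusted p = 0.0723), and the call held under 12 of 25 alternatives. The other members ran from -4.50 (Klk1b26, SE 1.18, adjusted p = 0.0888) to 0.98 (Klk1b24), and the list's median was -2.10. Klk1b21, Klk1b24 and Klk1b27, whose differences were 0.71, 0.98 and 0.64, are also in the Leydig marker list.

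Of the 75 negative calls detected in round spermatids alone, 48 had a gene symbol. Kiss1, the precursor of the neuropeptide kisspeptin, had 4.94, 5.37 and 4.94 in KO and 8.11, 8.02 and 8.40 in WT round spermatids. Its spermatocyte signals, 4.90, 4.79 and 4.67 in KO and 5.35, 5.17 and 5.40 in WT, were undetected on all 6 arrays. Kiss1 RNA was at least 6.34-fold lower in KO round spermatids, and the fitted difference was -2.57 (SE 0.25, adjusted p = 0.000958). Kiss1 was kept for the test only because the WT round spermatid arrays detected it. Its fitted difference sets that group against signals near background and is no evidence on spermatocytes.

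Tmem255b, a transmembrane protein, had 4.86, 4.61 and 4.82 in KO and 6.96, 7.26 and 7.58 in WT round spermatids. Its spermatocyte signals ran from 4.63 to 4.99 in KO and from 4.96 to 5.10 in WT, all undetected. It was at least 3.37-fold lower in KO round spermatids (fitted difference -2.21, SE 0.26). Like Kiss1, Tmem255b and Onecut3 were kept for the test only because the WT round spermatid arrays detected them. The same holds for Snx29, Lhx1, Defb21 and Kalrn, since fewer than 3 arrays outside that group detected each. The fitted differences of these genes are thus a description. No KO array detected any of the 7 genes described from this group, so they are known as RNAs of WT round spermatids that were not detected in KO round spermatids.

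Snx29, a sorting nexin, was at least 11.7-fold lower in KO round spermatids (fitted difference -3.04, SE 0.37). In KO spermatocytes it was at least 1.29-fold lower, and that fall passed as well (adjusted p = 0.0235). Lhx1, a LIM homeobox transcription factor, was at least 8.11-fold lower (-2.82, SE 0.49), and Onecut3, another homeobox factor, at least 4.18-fold lower (-2.61, SE 0.42). Defb21, a beta-defensin, was at least 5.22-fold lower (-2.91, SE 0.37), and Kalrn, a guanine nucleotide exchange factor, at least 6.20-fold lower (-2.52, SE 0.38). Some WT spermatocyte arrays detected Snx29 (2 of 3), Defb21, Lhx1 and Kalrn (1 of 3 each), and none detected Onecut3. Replicate 3 had the highest WT spermatocyte signal for each of these 5 genes. Without that array their differences were -3.27, -3.27, -2.75, -3.12 and -2.86 for Snx29, Lhx1, Onecut3, Defb21 and Kalrn.

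The 23 positive calls ran from 1.07 to 2.16. With cyclic loess 3 positive calls were made, and among the genes named here Gal3st1, Prss50, Paqr3, Spint1, Arf2, Gadd45b, Rpa2, Zyg11b, Tfrc and Atf4 lost their call. The RNA of 21 of them rose in KO round spermatids, and Gal3st1 had the largest difference between the stages. Pcgf5, a subunit of a Polycomb repressive complex, had 12.95, 13.00 and 12.87 in KO and 11.35, 10.64 and 11.06 in WT round spermatids. Its spermatocyte signals were 13.12, 13.66 and 13.54 in KO and 13.29, 13.27 and 13.25 in WT. Pcgf5 RNA was 3.78-fold higher in KO round spermatids and overlapped in spermatocytes (0.17, SE 0.20). The Pcgf5 difference was 1.75 (SE 0.28, adjusted p = 0.0104), or 1.76 without WT spermatocyte replicate 3, and the step was -0.50 in KO and -2.25 in WT cells.

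Paqr3, a Golgi membrane protein, had 8.53, 8.39 and 8.23 in KO and 5.57, 6.24 and 5.92 in WT round spermatids. On spermatocyte arrays it had 7.20, 7.40 and 7.31 in KO and 6.88, 6.31 and 6.34 in WT. KO was above WT at both stages, 5.55-fold in round spermatids, where 1 of 3 WT arrays detected it, and 1.74-fold in spermatocytes (adjusted p = 0.18). The difference of 1.68 (SE 0.30, adjusted p = 0.0171) did not pass with the fixed replicate block (adjusted p = 0.0511) or with cyclic loess (adjusted p = 0.0576).

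Gal3st1, which makes the sulfated lipid seminolipid of germ cell membranes, had 8.86, 8.57 and 8.55 in KO and 7.88, 6.51 and 7.05 in WT round spermatids. Gal3st1 signals in spermatocytes were 6.96, 7.01 and 6.98 in KO and 7.05, 8.0 and 7.83 in WT. KO lay above WT in round spermatids and below it in spermatocytes, where the difference did not pass (-0.64, SE 0.32, adjusted p = 0.767). The difference between stages was 2.16 (SE 0.45, adjusted p = 0.0375), and 0.0848 with the fixed replicate block. Prss50, a serine protease of the testis, had 1.33 and -0.44 for KO minus WT in the stages (difference 1.77, SE 0.39, adjusted p = 0.0463). Prss50 did not pass with the block (adjusted p = 0.0763) or without WT spermatocyte replicate 3 (adjusted p = 0.0519).

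Rhox13, an X-linked homeobox gene, had 9.28, 9.61 and 9.60 in KO and 9.22, 8.55 and 8.52 in WT round spermatids, and 7.18, 7.75 and 7.40 in KO and 8.15, 8.59 and 8.50 in WT spermatocytes. Neither stage passed on its own for Rhox13 (0.73, adjusted p = 0.0512, and -0.97, adjusted p = 0.0998), and the difference of 1.70 (SE 0.32) did (adjusted p = 0.0244), as it did without WT spermatocyte replicate 3 (1.66). It was 1 of 3 calls among the 311 X-linked features (0.965%), against 122 of 9712 autosomal genes (1.26%). The Rhox13 call held under 19 of 25 alternatives.

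Cdk5r1, an activator of the kinase Cdk5, had a difference of 1.63 (SE 0.33), with 0.96 in round spermatids and -0.67 in spermatocytes, where no KO array detected it. The Cdk5r1 call held under 14 of 25 alternatives. Spint1, an inhibitor of serine proteases (1.5, SE 0.32), Arf2, a small GTPase (1.33, SE 0.24), and Rpa2, a subunit of the single-strand DNA binding protein RPA (1.26, SE 0.27), were each detected on all 12 arrays. Spint1, Arf2 and Rpa2 did not pass with the fixed replicate block (adjusted p = 0.104, 0.0546 and 0.0763). Zyg11b, an adaptor of a cullin ubiquitin ligase, was undetected in WT at both stages, and its difference of 1.24 (SE 0.24) compares bounds, at least 2.19-fold higher in KO round spermatids and at least 1.42-fold in KO spermatocytes. Zyg11b did not pass with the fixed replicate block (adjusted p = 0.076). With undetected signals raised to the lowest detected level, a setting chosen after seeing the data, the Zyg11b difference was 0.63 and did not pass (adjusted p = 0.198).

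Atf4, a transcription factor of the integrated stress response, had 8.96, 9.09 and 9.19 in KO and 8.36, 8.12 and 8.34 in WT round spermatids, 9.72, 9.97 and 9.78 in KO and 9.97, 10.19 and 10.11 in WT spermatocytes. Atf4 RNA was 1.75-fold higher in KO round spermatids and the difference was 1.07 (SE 0.22, adjusted p = 0.0341), or 0.0989 with the fixed replicate block. Another Atf4 probe gave -0.53 and did not pass (SE 1.09). Of 16 measured genes of the unfolded protein response Atf4 was the 1 that passed, 14 had a difference above 0, against 57.2% of all features, and the median was 0.45. Gadd45b, of the list of p53 and cell death genes (17 measured, 1 called), was undetected in WT round spermatids, and its difference of 1.31 (SE 0.28) passed under 7 of 25 alternatives. Tfrc, the transferrin receptor, had 1.23 (SE 0.26, adjusted p = 0.0407, and 0.0683 with the block), and a second probe gave 1.07 and did not pass.

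Cstl1 and Odf3b fell at both stages without a difference between stages that passed. Cstl1, a cystatin-like gene, was 48.9-fold lower in KO round spermatids (7.95, 7.67 and 7.57 in KO, 13.33, 13.35 and 13.34 in WT) and 20.1-fold lower in KO spermatocytes (6.54, 6.30 and 6.35 in KO, 10.24, 10.65 and 11.30 in WT). It was detected on all 12 arrays, and its difference was -1.28 (SE 0.33, adjusted p = 0.0871). Odf3b, related to the outer dense fibres of the sperm tail, was 34.1-fold and 10.9-fold lower (difference -1.64, SE 0.49, adjusted p = 0.142). Without WT spermatocyte replicate 3, the highest of the WT spermatocyte arrays for these genes, both passed (Cstl1 -1.57, adjusted p = 0.00578, and Odf3b -2.07, adjusted p = 0.0104). Of the 82 spermatocyte falls 26 passed the test between the stages (31.7%), 21 of them with a gene symbol, and of the 24 spermatocyte rises 0 did.

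Of 23 lists of genes of germ cell biology, 8 had a member among the calls, and 11 of 455 measured members of all lists were called, against 1.49% of all features. Of 15 histone variants of the testis H2al2a and H2al2c passed, both negative, and 10 of 15 had a difference below 0 (median -0.83, and -0.97 for KO minus WT in round spermatids, where 8 fell and 0 rose). H2al2c, a relative of H2al2a on the Y chromosome, was detected in WT round spermatids alone and was at least 1.96-fold lower in KO (fitted difference -1.63, SE 0.35, adjusted p = 0.0456). The H2al2c call held under 9 of 24 alternatives, and which of the similar H2al2 genes each probe reads is uncertain. Of 20 acetyltransferases and deacetylases Hdac4 passed, and the list's median was 0.30. Of 32 sex-linked spermatid genes Cypt15, of a family of cysteine-rich proteins of the perinuclear theca, passed (-1.55, SE 0.22, adjusted p = 0.00389), with 5.28, 5.24 and 5.23 in KO and 7.09, 6.99 and 6.99 in WT round spermatids. Cypt15 was undetected on all 6 spermatocyte arrays and on every KO round spermatid array. H2al2c and Cypt15 were kept for the test only because the WT round spermatid arrays detected them. Their calls are no evidence on spermatocytes. Of 7 beta-defensins in the list Defb21 passed, 6 were below 0, and the median was -0.68.

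The genes of histone replacement had the same sign without passing. None of the 4 transition proteins and protamines passed, and all 4 were below 0 (median -0.58). Prm3 had -1.17 (SE 0.35, adjusted p = 0.142), and without WT spermatocyte replicate 3 it passed at -1.49 (adjusted p = 0.00642). Tnp2 had -0.66 (SE 0.27), and Prm1 and Tnp1 had -0.17 and -0.49. Both Prm3 and Tnp2 were lower in KO round spermatids (-1.37 and -0.82, adjusted p = 0.00313 and 0.0151).

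The 15 lists with no call had medians from -0.58 to 0.44, against 0.09 over all features, of which 57.2% were above 0. They include 29 genes of the acrosome and egg binding (median 0.22), 29 of the sperm tail (-0.15), 25 of meiotic prophase (0.37), 29 of cell division (0.27) and 24 cytosolic ribosomal proteins (-0.03). Of 26 proteasome genes 23 were above 0 (median 0.31), and of 25 genes of oxidative phosphorylation 23 (median 0.31), with 0 calls in each. With cyclic loess the median of the acrosome list was -0.09, while those of the meiotic, division, proteasome and oxidative phosphorylation lists stayed above 0. Across the 12705 features KO minus WT in round spermatids and in spermatocytes correlated at r = 0.60 (Spearman's rank correlation 0.37), values that share the scaling of the arrays and, at low signals, their background.

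Promoters in RefSeq (GRCm38.p6) were available for 8224 of the 10076 genes, as windows of 300 bases around each start, and were searched on both strands. The letters searched were the cAMP response element (CRE), TGACGTCA. Its core was searched as TGACG. The TATA box was searched as TATAAA. The CCAAT box was searched by the letters of its name. The core is contained in the full element. The core was present in any window of 16 of 88 negative calls (18.2%) and 8 of 16 positive calls (50%), against 34.4% of all genes tested. It was present in 25.5% of the negative calls detected at both stages and in 25.1% of the spermatid falls without a stage difference that passed, whose median GC content was 56.7%. The full element was present in 1 of 88 and 1 of 16, against 3.67%. The TATA box was present in 9.09% and 6.25%, against 9.12%, and the CCAAT box in 43.2% and 62.5%, against 43.1%. The median GC content was 55.2% for the negative and 62.8% for the positive calls, against 60% for all genes, so the groups differ in base composition as well. A match is a description of the letters and was not tested as a site. Shown 5′ to 3′ with matches in capitals on either strand are a negative call with a TATA box, a kallikrein of the negative calls and the positive calls Paqr3, with the full element, and Pcgf5, of which the first of several listed starts is given. They are Cyp2a12 at chr7:27028840-27029139 (plus strand), Klk1b8 at chr7:43950416-43950715 (plus), Paqr3 at chr5:97111547-97111846 (minus) and Pcgf5 at chr19:36348079-36348378 (plus).
Cyp2a12: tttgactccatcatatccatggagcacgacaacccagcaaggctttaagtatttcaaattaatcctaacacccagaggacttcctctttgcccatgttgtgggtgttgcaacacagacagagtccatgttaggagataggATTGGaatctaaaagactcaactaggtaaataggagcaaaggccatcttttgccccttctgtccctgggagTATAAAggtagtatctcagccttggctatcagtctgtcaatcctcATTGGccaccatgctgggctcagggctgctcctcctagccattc
Klk1b8: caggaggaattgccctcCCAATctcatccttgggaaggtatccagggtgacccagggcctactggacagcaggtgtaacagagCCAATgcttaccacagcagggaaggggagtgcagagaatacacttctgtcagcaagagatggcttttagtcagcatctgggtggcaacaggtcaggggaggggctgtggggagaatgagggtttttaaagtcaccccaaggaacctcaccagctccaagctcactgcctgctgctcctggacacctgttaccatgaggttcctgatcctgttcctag
Paqr3: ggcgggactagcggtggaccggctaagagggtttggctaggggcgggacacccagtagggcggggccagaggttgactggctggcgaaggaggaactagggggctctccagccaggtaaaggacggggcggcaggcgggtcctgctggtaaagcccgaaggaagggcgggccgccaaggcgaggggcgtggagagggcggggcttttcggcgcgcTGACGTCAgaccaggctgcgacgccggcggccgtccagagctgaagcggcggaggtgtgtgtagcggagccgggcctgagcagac
Pcgf5: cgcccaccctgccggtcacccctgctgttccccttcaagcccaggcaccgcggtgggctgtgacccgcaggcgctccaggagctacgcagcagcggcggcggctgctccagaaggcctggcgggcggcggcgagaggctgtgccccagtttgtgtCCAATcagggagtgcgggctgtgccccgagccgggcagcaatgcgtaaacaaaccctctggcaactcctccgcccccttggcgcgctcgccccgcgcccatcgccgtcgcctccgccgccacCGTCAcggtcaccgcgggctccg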

How the data were processed

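RNA of sorted testis cells was hybridised to Illumina bead arrays as biotin-labelled cRNA, per the labels' protocols. The authors deposited a table of non-normalized intensities with a detection p-value per probe and array, and a table of processed intensities on a linear scale with nearly equal array medians. Scanner software, bead summary and background subtraction are not given in the sources used here, and the number of arrays limits the precision. Intensities of all 24 arrays were background-corrected and quantile-normalized with neqc (offset 16) in limma 3.58.1 (R 4.3.3), which gives log2 signals. The filter required a detection p below 0.01 on 3 or more of the 12 direct arrays and passed 17401 of 45281 probes (38.4%), and the probe with the highest mean stood for its gene, which left 12705 features. The platform annotation gave 1 gene for 34885 probes, several for 18 and none for 10378, and 34807 were found in RefSeq.

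A limma model with 4 group means (lmFit, eBayes, 8 residual and 4.07 prior degrees of freedom) gave the difference of differences and its components, 2-sided, with Benjamini-Hochberg adjustment over all 12705 features. Every adjusted p comes from limma, and every SE from the same fit with 3 arrays per group. The procedure was tested on simulated data. Because the array of a stage shares animals with the same-numbered array of the other stage, per the labels, the fractionation was also used as a block. Same-numbered residuals correlated at 0.41, 0.39 and 0.04 in KO and 0.25, -0.20 and 0.20 in WT. Other alternatives changed the scaling, the offset, the filter, the probe choice, the array weights, the moderation and the arrays used. A fold against a genotype undetected on all 3 arrays is a bound, set against the higher of the array's lowest detected signal and the gene's own signal.

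Named genes were, among calls, those with the most negative and most positive values by detection class and those with the smallest p before adjustment. Clone and locus names were passed over. Also named were the members of each list with the smallest p, Nutm1 and, added after their values were seen, genes detected on all 12 arrays. Members, lists and tests were chosen with earlier results of these data known.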

Additional observations from a re-analysis of the deposited data

Results flagged for a closer look

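Limma's test of the difference of differences gave 166 negative and 23 positive calls. A relative loss was measured at both stages for 62 of the 166, where each group had at least 1 detected array. For the others a difference in relative loss was not measured. Clone and locus names aside, the smallest limma p before adjustment belonged to Cyp2a12 (-3.68), Slc39a4 (-2.86), Gsdmd (-2.77), Kiss1 (-2.57) and Tmem255b (-2.21). Each was lower in KO than in WT round spermatids in all 3 arrays. Klk1b9, Snx29 and Pcca shared the adjusted p of Gsdmd and Tmem255b, 0.00269. No KO array detected Cyp2a12, Kiss1 or Tmem255b, so their fitted differences were set by the WT step. Kiss1 and Tmem255b were detected on WT round spermatid arrays alone.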

How the results depend on the processing

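Of 83 named genes, 60 passed, 26 of these passed under each of the 25 alternatives that could be computed for them, and none of 2063 gene values reversed its sign. Against 166 negative and 23 positive calls, the fractionation as a fixed replicate block gave 198 and 6, and as a random replicate block 221 and 48 (correlation 0.08). The fixed block ended the calls of 15 named genes, among them also Vti1a, Prkag1 and Dcakd (adjusted p = 0.12, 0.105 and 0.124). Cyclic loess gave 151 and 3 calls, the authors' processed values 262 and 75, an offset of 50 241 and 52, no filter 126 and 34, and features detected at both stages 72 and 11. Array weights gave 614 and 509, and the mixed arrays alone, whose RNA is not independent, 1167 and 1891. Chosen after seeing the data, raising undetected signals to the lowest detected level gave 261 and 50, and leaving out WT spermatocyte replicate 3 with KO spermatocyte replicate 1 gave 483 and 135. Leaving out 1 array gave 80 to 451 negative and 2 to 99 positive calls. Calls detected at both stages, 112, ran from 40 to 362. Without KO round spermatid replicates 1, 2 and 3 the counts were 95 and 3, 104 and 2, and 81 and 2, and without WT round spermatid replicates 182 and 99, 104 and 5, and 87 and 2. Without KO spermatocyte replicates they were 147 and 35, 94 and 9, and 103 and 8, and without WT spermatocyte replicates 111 and 39, 80 and 2, and 451 and 39. The cause of these shifts was not tested. Background limits how far the size can be read for the negative calls outside the 62 of 166 with a detected array in every group. It also limits those of the 62 with undetected arrays, since detection on all 12 arrays held for 45. For 63 there was no spermatocyte fold, and in 77 no KO array detected the feature.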
